A study of Mus musculus with 12 samples.

Results

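The 9 genes described here encode small leucine-rich proteoglycans, and they were taken by name from the 24692 entries of the expression table: Dcn, Bgn, Aspn, Lum, Fmod, Prelp, Omd, Ogn and Podn. Each symbol matched 1 entry. Expression was measured by RNA sequencing in 12 libraries from back skin of male mice at postnatal day 26 to 27, in early anagen, the start of a hair growth cycle. All mice carried a Sox2:GFP and an aSMA:dsRed reporter, the latter driven by the smooth muscle actin promoter, and no treatment was named. Cells were sorted after digestion of the skin into dermal stem cells, dermal papilla, dermal sheath and interfollicular dermis, with 3 libraries each (replicates 1, 2 and 4 for stem cells and papilla, 1, 4 and 5 for sheath, and 1, 2 and 6 for interfollicular dermis). Sheath replicate 1 is the library titled DSL1; its labels give the same cell type as DS4 and DS5, and what the added letter stands for is not stated. The labels do not state whether each replicate is a different animal, so every p-value here is set against library-to-library spread alone, and that spread may be technical. Values are FPKM, fragment counts scaled to transcript length and library size, which can be compared between genes.

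Small leucine-rich proteoglycans are secreted proteins of connective tissue whose curved leucine-rich repeats bind collagen and set the spacing and thickness of its fibrils. Decorin (Dcn) and biglycan (Bgn) carry chondroitin or dermatan sulfate chains, while lumican (Lum), fibromodulin (Fmod) and osteoadherin (Omd) can carry keratan sulfate. Decorin is a major proteoglycan of dermis, and decorin and biglycan also bind growth factors such as TGF-beta.

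The labels were checked against lists of marker genes. The fibroblast marker list (Pdgfra, Pdgfrb, Vim, Thy1, Fbln1 and Fstl1) summed to 2369.9 to 3440.4 FPKM in stem cells and 1392 to 1917 in papilla, but to 162 to 280 in the libraries labelled dermal sheath and 189 to 252 in those labelled interfollicular dermis, and 0 of its 6 genes were at 0 in any library. Of the 6, 5 were higher and 0 lower in stem cells than in sheath (19.6% and 24.3% of all tested genes). Against interfollicular dermis these counts were also 5 and 0 (17.9% and 19.7%). Fbln1 differed little, at 31.1 ± 14.9 FPKM in stem cells, 27.8 ± 12.1 in papilla, 23.8 ± 6.16 in sheath and 16.4 ± 2.04 in interfollicular dermis. The 10 keratinocyte markers summed to 633 to 1214, 1142 to 3365, 1087 to 1229 and 1104 to 1621 FPKM in the same order, but single markers went different ways. Krt10, a keratin of differentiating epidermis, averaged 361 ± 135 FPKM in stem cells, 1528 ± 829 in papilla, 53.4 ± 45.2 in sheath and 167 ± 47.4 in interfollicular dermis. Krt5, a basal keratin, averaged 118 ± 53.3, 140.4 ± 58.6, 395 ± 24.6 and 378 ± 65.2, and the basal transcription factor gene Trp63 averaged 15.5 ± 5.84, 16.1 ± 8.04, 121 ± 24.2 and 89.0 ± 11.7 (SD, n = 3). Of the 10, 6 were lower and 2 higher in stem cells than in sheath (24.3% and 19.6% of all tested genes). Against interfollicular dermis 7 were lower and 1 higher in stem cells (19.7% and 17.9%). In papilla 2 were lower and 2 higher than in sheath (33.4% and 16.4%), and 3 and 2 than in interfollicular dermis (28.6% and 13.7%). The 7 melanocyte markers summed to 16.6 to 89.0 in stem cells, 197 to 819 in papilla, 10.6 to 20.0 in sheath and 154 to 934 in interfollicular dermis, the 6 Schwann cell markers to 10.96 to 19.3, 26.8 to 111, 5.59 to 8.47 and 12.1 to 21.8, and the 9 papilla markers to 116 to 208, 172 to 1022, 31.6 to 90.9 and 105 to 185. In the same order, the 6 proliferation markers summed to 15.8 to 50.4, 11.1 to 25.0, 253 to 337 and 181 to 226. Single papilla markers also went different ways. Crabp1 and Rspo3 averaged 311 and 98.1 FPKM in papilla against 30.0 and 6.39 in stem cells. Corin and Sox18 averaged 54.9 and 2.17 in papilla against 90.9 and 8.99 in stem cells. Lef1 averaged 87.0 in interfollicular dermis and 19.4 in papilla. Papilla replicates 1 and 2 had the 2 highest keratinocyte sums, and the 7 immune markers summed to 1056 and 695 FPKM in stem cell replicates 1 and 2 against 49.2 in replicate 4. The smooth muscle actin gene Acta2 averaged 872 ± 26.0 FPKM in stem cells and 45.4 ± 35.8 in papilla. It averaged 49.3 ± 23.1 in sheath and 8.70 ± 2.60 in interfollicular dermis. Sox2 was read at 0.882, 2.66 and 7.17 in papilla replicates 1, 2 and 4, against 1.11 to 1.17 in stem cells. It averaged 0.153 ± 0.129 in sheath and 0.241 ± 0.115 in interfollicular dermis. All population names are used below as labels only. In these bulk libraries fewer cells of a type and less RNA per cell cannot be told apart. The fibroblast marker sum was low, and Krt5, Trp63 and the proliferation markers were high, where the proteoglycans were low. Their part in the differences was not tested. The part of the melanocyte, Schwann cell and papilla markers, whose sums reached higher in papilla than in stem cells, was not tested either.

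Most of the genes, though not Bgn and Podn, lie beside another member in the mouse genome, and 3 neighbours were examined at their start sites (build GRCm38, GENCODE M21 gene positions). On chromosome 13, Aspn (49544443 to 49567565), Omd (49582462 to 49592822) and Ogn (49608046 to 49624501) follow each other on the plus strand, with 14896 bases between Aspn and Omd and 15223 between Omd and Ogn. On chromosome 10, Dcn (97479609 to 97518143) precedes Lum (97565128 to 97572703) with a gap of 46984 bases. On chromosome 1, Prelp (133910304 to 133921414) and Fmod (134037254 to 134048277) are 115839 bases apart. Bgn lies on chromosome X (73483602 to 73495933) and Podn on chromosome 4 (108014791 to 108096445). The gene Cenpp overlaps Aspn, Omd and Ogn on the opposite strand and shares 7, 0 and 0 exon bases with them. Cenpp ran from 1.15 to 4.48 FPKM in stem cells and papilla and from 5.74 to 27.0 in the other 6 libraries, the reverse of the order of its 3 partners. Gm15851 overlaps 350 exon bases of Prelp in antisense, and whether the counting used strand is not given in the sources used here.

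The 250 bases upstream of the start sites of these 3 neighbours and of Bgn are printed 5′ to 3′ because Omd and Bgn differed most between stem cells and papilla while Aspn and Ogn did not pass a test there. The sequences are from RefSeq (GRCm38.p6), whose promoter table matched 7 of the 9 genes, and all 4 lie on the plus strand, at chr13:49544193-49544442 (Aspn), chr13:49582212-49582461 (Omd), chr13:49607765-49608014 (Ogn) and chrX:73483351-73483600 (Bgn). The windows of Ogn and Bgn end at 49608014 and 73483600, while their GENCODE starts are 49608046 and 73483602, so the start sites differ. Capitals mark matches on either strand to a TATA box (letters TATAAA), a GC box (letters GGGCGG) or a TCF/LEF core (letters CTTTGA).
Aspn: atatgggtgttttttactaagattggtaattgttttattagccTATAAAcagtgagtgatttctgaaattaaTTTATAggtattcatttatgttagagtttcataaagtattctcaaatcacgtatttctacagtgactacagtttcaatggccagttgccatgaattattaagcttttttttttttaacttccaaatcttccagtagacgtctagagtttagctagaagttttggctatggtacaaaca
Omd: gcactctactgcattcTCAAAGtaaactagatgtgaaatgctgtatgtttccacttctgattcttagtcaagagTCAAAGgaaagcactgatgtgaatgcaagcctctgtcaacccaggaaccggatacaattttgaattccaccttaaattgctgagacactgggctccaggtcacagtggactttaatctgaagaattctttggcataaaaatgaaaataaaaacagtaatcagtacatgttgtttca
Ogn: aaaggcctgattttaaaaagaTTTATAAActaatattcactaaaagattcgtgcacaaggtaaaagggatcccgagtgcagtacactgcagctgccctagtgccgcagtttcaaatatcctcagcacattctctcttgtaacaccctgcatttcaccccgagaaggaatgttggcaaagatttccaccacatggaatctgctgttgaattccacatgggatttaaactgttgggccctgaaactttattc
Bgn: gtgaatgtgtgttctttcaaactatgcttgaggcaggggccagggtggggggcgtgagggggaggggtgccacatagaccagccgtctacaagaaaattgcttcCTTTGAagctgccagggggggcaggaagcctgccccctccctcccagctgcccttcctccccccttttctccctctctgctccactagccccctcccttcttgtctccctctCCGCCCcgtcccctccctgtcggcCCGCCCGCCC
Aspn and Ogn each held 2 matches to the TATA box, from 178 to 229 bases upstream of the start and overlapping in Ogn, and Omd held 2 to the TCF/LEF core. Bgn held 1 match to the TCF/LEF core and 3 to the GC box, of which 2 overlap each other. Of 32851 upstream windows of this length, 12.4% held the TATA box letters, 13.8% the TCF/LEF core and 32.7% the GC box. The E-box letters CANNTG were found 1 time in Aspn and in Bgn, 3 times in Ogn and 0 times in Omd (66.2% of windows held them), and the AP-1 letters TGANTCA in none of the 4 (6.75% of windows). These matches describe the letters only.

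All 9 genes were most abundant in stem cells or papilla and lower in the other 2 populations. The ratio of means ran from 2.17 (Dcn, stem cells over sheath) to 98.3 (Omd, stem cells over interfollicular dermis). Every one differed among the 4 populations (limma, moderated F test on log2(FPKM + 1), adjusted p from 6.98e-07 for Bgn to 0.000747 for Dcn), where 56.8% of all 12774 tested genes did. Summed over the 9 genes, FPKM averaged 4396 ± 861 in stem cells, 4042 ± 1078 in papilla, 839.9 ± 232 in sheath and 612 ± 163 in interfollicular dermis (SD, n = 3). The sum was 1.48% to 2.28% of all FPKM of a stem cell library, 1.202% to 2.202% in papilla, 0.343% to 0.545% in sheath and 0.242% to 0.363% in interfollicular dermis. The lowest library of stem cells and papilla therefore lay above the highest of the other 6.

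**Figure D1:**
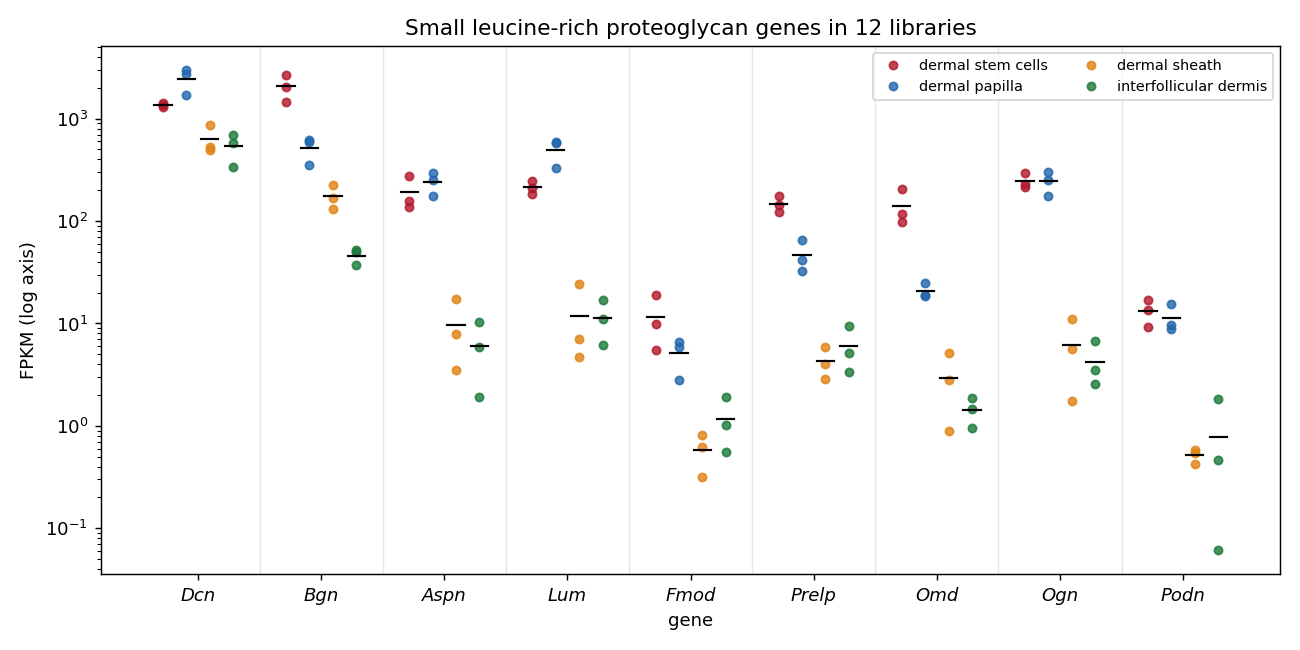
FPKM of the 9 genes (horizontal axis) in each of the 12 libraries on a log axis, with 1 point per library, coloured by population, and a black bar at the mean of the 3 libraries. For all 9 genes the stem cell and papilla points lie above those of dermal sheath and interfollicular dermis, with Dcn running from 1311 FPKM upward in the former and up to 869.9 in the latter.

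Decorin was the most evenly spread member. Dcn was read at 1355, 1311 and 1435 FPKM in stem cell replicates 1, 2 and 4 and at 2989, 1688 and 2699.6 in papilla replicates 1, 2 and 4. In sheath replicates 1, 4 and 5 it was read at 494, 869.9 and 524, and in interfollicular replicates 1, 2 and 6 at 580.0, 687 and 339. The sheath and interfollicular values overlapped, while the papilla values all exceeded the stem cell values. Dcn stood among the 21 most abundant entries of every library, at rank 5 in papilla replicates 1 and 4 and sheath replicate 4 and at rank 21 in interfollicular replicate 6. It was higher in stem cells than in sheath (log2 fold change 1.17, SE 0.37, limma adjusted p = 0.0209) and than in interfollicular dermis (1.41, adjusted p = 0.00929), and higher in papilla than in both (1.97 and 2.22, adjusted p = 0.000832 and 0.000555). The excess in papilla over stem cells did not pass (0.81, SE 0.37, adjusted p = 0.19). The call against sheath ended without stem cell replicate 1 (adjusted p = 0.0554) or 4 (0.0556) or sheath replicate 1 (0.0722) or 5 (0.0721), and with quantile normalization the difference turned to -0.28 (adjusted p = 0.48). Quantile normalization also ended the calls of stem cells against interfollicular dermis (0.523) and papilla against sheath (0.305), and without the filter on low values all 4 Dcn calls (0.327, 0.232, 0.0754 and 0.0557 in the order given) and its F test (0.11) ended.

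Biglycan, the closest relative of decorin, followed a different order, from stem cells through papilla and sheath to interfollicular dermis. Bgn was read at 2058, 1448 and 2683 FPKM in stem cells, 613, 349.6 and 587 in papilla, 130.2, 168 and 225 in sheath, and 36.9, 49.7 and 51.6 in interfollicular dermis. No value of any population reached into the range of the next. The 8 sheath and smooth muscle markers summed to 1931 to 2052 FPKM in stem cells, 90.0 to 215 in papilla, 119 to 348 in sheath and 17.7 to 40.8 in interfollicular dermis, and their part in the Bgn, Prelp and Omd differences was not tested. Bgn was lower in papilla than in stem cells (log2 fold change -1.99, SE 0.32, limma adjusted p = 0.00277), which is a ratio of means of 3.99 in favour of stem cells. It exceeded sheath by 3.55 in stem cells (adjusted p = 6.19e-06) and by 1.55 in papilla (0.0017), and interfollicular dermis by 5.42 (2.47e-07) and 3.43 (1.17e-05). Of the 9 genes Bgn was also the only one that differed between sheath and interfollicular dermis (1.88, SE 0.32, adjusted p = 0.00965), where 0.939% of tested genes were called higher in sheath, 1.32% lower and 2.26% either way. This last call ended without sheath replicate 5 (adjusted p = 0.0546) or interfollicular replicate 1 (0.056), without the filter on low values (0.0538) and with the replicate block (0.0939).

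Asporin (Aspn), which binds collagen and, unlike its relatives, carries a stretch of aspartates in place of a sugar chain, averaged 191 ± 76.6 FPKM in stem cells and 240.2 ± 58.2 in papilla (SD, n = 3). It was read at 136, 158 and 278 FPKM in stem cells, 252, 177 and 292 in papilla, 7.93, 17.4 and 3.51 in sheath, and 1.90, 5.88 and 10.2 in interfollicular dermis. The stem cell and papilla values overlapped (log2 fold change 0.37, SE 0.53, limma adjusted p = 0.699), as did those of sheath and interfollicular dermis (0.58, SE 0.53, adjusted p = 0.676). Stem cells exceeded sheath by 4.33 (adjusted p = 5.22e-05) and interfollicular dermis by 4.91 (2.4e-05).

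Lumican, a regulator of collagen fibrils that is abundant in cornea and skin, was highest in papilla. Lum was read at 185, 212 and 246 FPKM in stem cells and 576, 332 and 591 in papilla, with no overlap, but the difference did not pass (log2 fold change 1.18, SE 0.48, limma adjusted p = 0.15). Sheath held 4.66, 24.1 and 7.03 FPKM and interfollicular dermis 6.16, 10.97 and 17.0, which overlapped. The fall from papilla to sheath was the largest for any of the 9 genes in that comparison (5.53, SE 0.48, adjusted p = 4.97e-06). Lum was thus lower in sheath than in papilla by a ratio of means of 41.9, where its chromosomal neighbour Dcn was lower by 3.91.

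Prelp and Omd, both leucine-rich proteins that bind matrix or cell surface partners, shared the order of Bgn between stem cells and papilla. Omd, first known from bone, was read at 117, 98.4 and 204 FPKM in stem cells and 18.7, 24.7 and 18.8 in papilla (log2 fold change of papilla over stem cells -2.63, SE 0.39, limma adjusted p = 0.00168). It fell further to 2.81, 5.17 and 0.882 in sheath and 0.949, 1.45 and 1.87 in interfollicular dermis. Its stem cell mean exceeded the interfollicular mean by 98.3 to 1, the widest ratio among the 9 genes. Prelp, which binds both collagen and the heparan sulfate of basement membranes, was read at 175, 123 and 144 FPKM in stem cells and 64.7, 42.1 and 32.2 in papilla (-1.70, SE 0.34, adjusted p = 0.0101). Sheath held 5.93, 2.89 and 3.99 FPKM of Prelp and interfollicular dermis 3.39, 5.10 and 9.41, which overlapped. The Prelp call between papilla and stem cells ended when stem cell replicates 1 and 2 were both left out (-1.68, adjusted p = 0.168), an alternative chosen after seeing the data, and those of Omd and Bgn held there.

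Osteoglycin (Ogn), a short member of the family also called mimecan, averaged 248 ± 42.8 FPKM in stem cells and 244 ± 64.0 in papilla (SD, n = 3). Ogn was read at 216, 232 and 297 FPKM in stem cells and 249, 177 and 305 in papilla (log2 fold change -0.05, SE 0.45, limma adjusted p = 0.962). It was read at 5.65, 11.2 and 1.74 in sheath and 3.50, 2.55 and 6.67 in interfollicular dermis. Stem cells exceeded sheath by 5.35 (adjusted p = 3.76e-06) and interfollicular dermis by 5.63 (2.17e-06).

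Fibromodulin and podocan (Podn) were the least abundant members. Fmod, which guides collagen crosslinking, was read at 5.49, 9.91 and 19.2 FPKM in stem cells, 5.92, 6.54 and 2.81 in papilla, 0.619, 0.821 and 0.317 in sheath, and 0.559, 1.02 and 1.90 in interfollicular dermis. Podn was read at 13.5, 17.0 and 9.32 in stem cells, 15.4, 8.91 and 9.77 in papilla, 0.544, 0.581 and 0.424 in sheath, and 0.061, 0.464 and 1.81 in interfollicular dermis. For both genes stem cells and papilla overlapped, with limma log2 fold changes of -0.95 (SE 0.42, adjusted p = 0.178) and -0.21 (SE 0.36, adjusted p = 0.76). Both were higher in stem cells than in sheath, by 2.84 (Fmod, adjusted p = 0.000194) and 3.20 (Podn, 2.99e-05). The Fmod excess of papilla over interfollicular dermis (1.48, adjusted p = 0.0128) did not pass without interfollicular replicate 1 (0.0543).

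Set against all genes, all 9 genes passed in 4 of the 6 comparisons and some of them in the other 2. Between papilla and stem cells, 3 of the 9 genes passed, Bgn, Prelp and Omd, all lower in papilla, where 6.38% of tested genes were called lower, 2.31% higher and 8.69% either way; 0 of the 9 passed as higher. The 9 genes had a median log2 fold change of -0.21, beside a median of -0.25 over all tested genes. All 9 were higher in stem cells than in sheath (of all tested genes 19.6% were called higher, 24.3% lower and 43.9% either way), with a median of 4.33 against -0.13 over all genes, and all 9 higher in stem cells than in interfollicular dermis (background 17.9% higher, 19.7% lower and 37.6% either way; median 4.49 against -0.14). All 9 were likewise higher in papilla than in sheath (16.4% higher, 33.4% lower and 49.8% either way; median 2.99 against -0.36) and than in interfollicular dermis (13.7% higher, 28.6% lower and 42.3% either way; median 3.17 against -0.32). These 4 comparisons share libraries and are not independent of each other. Between sheath and interfollicular dermis 1 of 9 passed.

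Scaling between libraries shifts the fold changes. With median-of-ratios scaling the median shift of log2 fold change over all genes was 0.20 for papilla minus stem cells. The share of calls that were higher there went from 26.6% to 47.2% (51.4% with quantile normalization). The median shift was 0.19 and 0.13 for stem cells minus sheath and minus interfollicular dermis, and 0.38 and 0.32 for papilla minus the same populations. With quantile normalization these shifts were -0.01, -0.02, 0.22 and 0.22. With median-of-ratios scaling the share of higher calls went from 44.6% to 55.5% for stem cells minus sheath. It went from 32.9% to 52.4% for papilla minus sheath, and from 32.3% to 53.3% for papilla minus interfollicular dermis. Quantile normalization gave 43.5%, 43.4% and 44.7% in the same order. With only the 6 papilla and stem cell libraries fitted, 658 genes passed when they were paired by replicate number and 512 when they were not, against 1110 with all 12 libraries unpaired, and Bgn, Prelp and Omd passed in each.

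**Figure D2:**
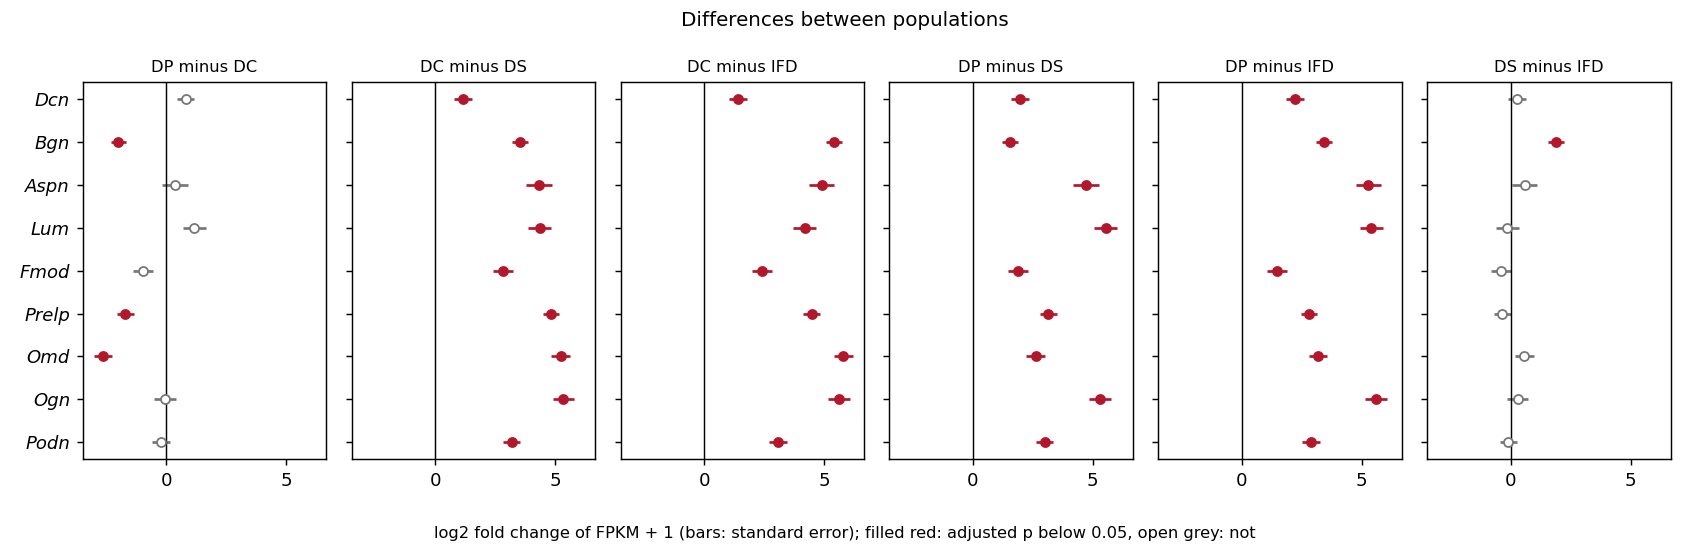
Log2 fold change of FPKM + 1 (horizontal axis, with standard error bars) for each gene in the 6 comparisons of populations, 1 panel each (DC stem cells, DP papilla, DS sheath, IFD interfollicular dermis). Red filled points passed at an adjusted p below 0.05: Bgn, Prelp and Omd below 0 in papilla minus stem cells, all 9 above 0 in the 4 middle panels, and Bgn alone in sheath minus interfollicular dermis.

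The make-up of the family also differed, a comparison that does not depend on its total level. Bgn held 46.3% ± 5.46 of the summed FPKM of the 9 genes in stem cells and Dcn 31.7% ± 4.66 (SD, n = 3). In papilla Dcn held 60.7% ± 1.57, Bgn 12.7% ± 0.249 and Lum 12.3% ± 0.638. Dcn held 74.4% ± 5.52 in sheath and 86.2% ± 7.88 in interfollicular dermis, where Bgn held 21.5% ± 7.19 and 8.02% ± 3.23. Lum, Ogn, Aspn, Prelp and Omd each held under 4% in every library of these 2 populations. In stem cells those 5 genes averaged 3.10% (Omd) to 5.69% (Ogn). The stem cell libraries were the only ones in which Bgn was more abundant than Dcn.

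**Figure D3:**
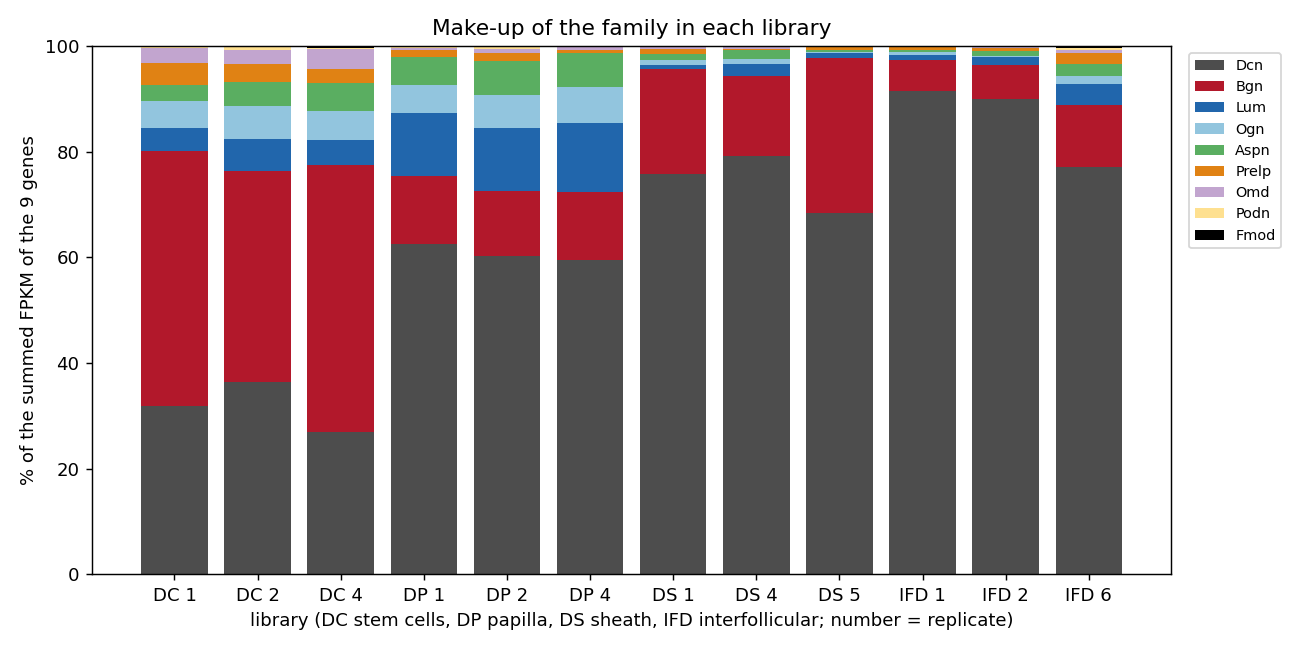
Share of each gene (coloured segments, in percent) in the summed FPKM of the 9 genes for each of the 12 libraries. Bgn takes 40.1% to 50.5% in the 3 stem cell libraries and 12.5% to 12.9% in the 3 papilla libraries, and Dcn takes 68.3% to 91.6% in the 6 sheath and interfollicular libraries.

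Ratios between pairs of members were tested over the 12 libraries with an exact permutation test of the population labels (369600 arrangements, two-sided in the sense that any difference among populations counts, smallest possible p = 6.5e-05), on log2(FPKM + 1), for 7 pairs of relatives or neighbours chosen after their values were seen. The Dcn to Bgn ratio of FPKM was 0.535 to 0.905 in stem cells, 4.595 to 4.88 in papilla, 2.33 to 5.19 in sheath and 6.58 to 15.7 in interfollicular dermis (exact p = 0.00026, adjusted p = 0.0018 over the 7 ratios). Stem cells stood below all 9 other libraries. The Dcn to Lum ratio was 5.82 to 7.32 in stem cells and 4.57 to 5.19 in papilla, but 36.2 to 106 in sheath and 20.0 to 94.1 in interfollicular dermis (exact permutation p = 0.0033, adjusted p = 0.0058). The Dcn to Aspn ratio rose in the same manner, from at most 11.9 in stem cells and papilla to at least 33.1 in the other 6 libraries (exact permutation p = 0.0042, adjusted p = 0.0058).

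Within the chromosome 13 cluster the middle gene departed from its flanking neighbours in papilla. The Omd to Aspn ratio was 0.622 to 0.862 in stem cells, 0.0645 to 0.139 in papilla, 0.251 to 0.354 in sheath and 0.182 to 0.499 in interfollicular dermis (exact permutation p = 0.0021, adjusted p = 0.0058). The Omd to Ogn ratio was 0.0618 to 0.139 in papilla and 0.271 to 0.687 in the other 9 libraries (exact permutation p = 0.011, adjusted p = 0.013). The papilla libraries lay below all others in both ratios. As these pairs were chosen after their values were seen, the p-values give no independent support for the difference. The ratio of the 2 flanking genes, Ogn to Aspn, was 1.07 to 1.59 in stem cells, 0.990 to 1.04 in papilla, 0.496 to 0.712 in sheath and 0.434 to 1.84 in interfollicular dermis, and its difference among populations did not pass (exact permutation p = 0.11, adjusted p = 0.11), although it passed without interfollicular replicate 1 (adjusted p = 0.0023). On chromosome 1 the Prelp to Fmod ratio passed with the pseudocount of 1 (exact permutation p = 0.0037, adjusted p = 0.0058) but not with 0.1 (adjusted p = 0.14), and the plain ratios overlapped (7.54 to 31.9 in stem cells, 6.44 to 11.4 in papilla, 3.53 to 12.6 in sheath, 4.96 to 6.06 in interfollicular dermis).

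**Figure D4:**
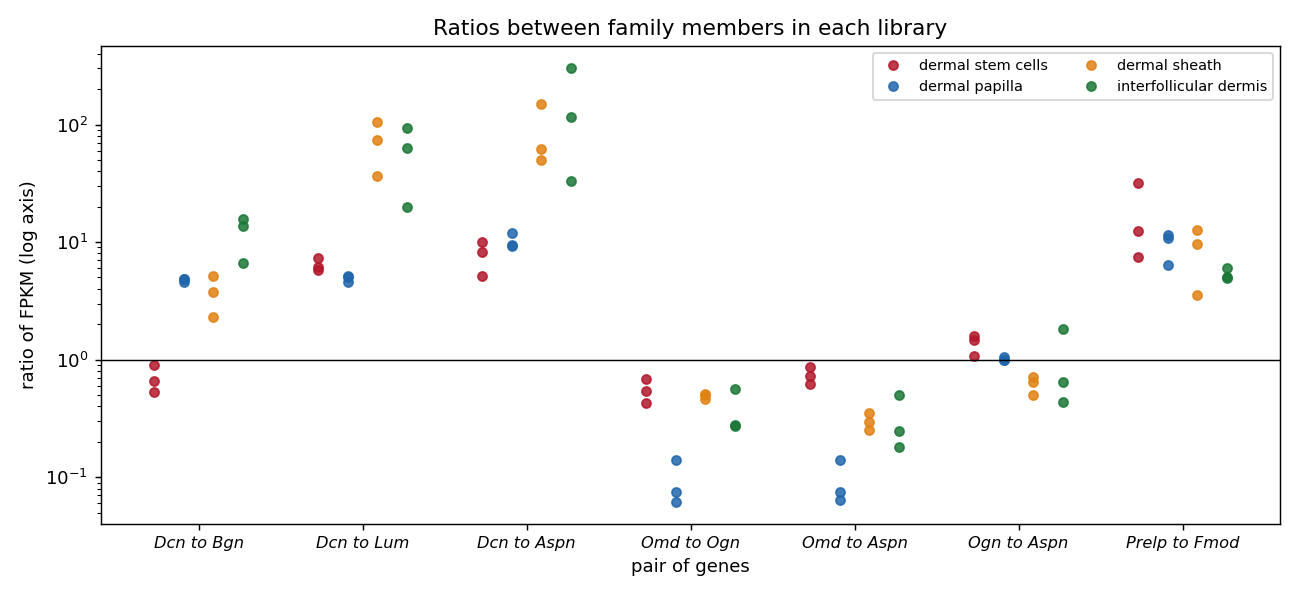
Ratio of FPKM between 7 pairs of family genes in each of the 12 libraries (log axis, 1 point per library, coloured by population, with a line at 1). Dcn to Bgn lies below 1 in the 3 stem cell libraries only, and Omd to Aspn and Omd to Ogn are lowest in the 3 papilla libraries, at or below 0.139.

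Across all 12 libraries the log values of the 9 genes were positively correlated, from r = 0.66 (Dcn with Fmod) to r = 0.99 (Ogn with Aspn), where every pair shares the libraries and the wide gap between populations. Within the 6 stem cell and papilla libraries Dcn with Lum gave r = 0.98, Bgn with Omd r = 0.94, Dcn with Omd r = -0.85 and Lum with Omd r = -0.87, values that hold the difference between the 2 population means. With the mean of each population taken away, over the 12 libraries, these pairs gave 0.41, -0.02, 0.15 and 0.53. The genes whose log values followed a member most closely over the 12 libraries, among 11156 tested genes with no value of 0, included Sparc (r = 0.992 with Aspn and 0.99 with Lum) and Dpt (0.991 and 0.99), both matrix proteins that bind collagen. Omd was most like Nid2 (r = 0.991), a basement membrane protein gene, Prelp most like the metalloproteinase gene Adam19 (0.993), Bgn most like Igfbp7 (0.983), Ogn most like the noncoding RNA gene Rian (0.99), Podn most like the receptor gene Gpr133 (0.99), Fmod most like the phospholipase gene Plcd1 (0.97) and Dcn most like Mageh1 (0.977).

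Ecm2 was the most abundant of the other tested family genes in stem cells and papilla. Of 9 further small leucine-rich proteoglycan genes in the table, 3 passed the filter of 1 FPKM in 3 libraries. Ecm2, which lies beside Aspn with a gap of 11653 bases, averaged 27.6 ± 2.28 FPKM in stem cells, 48.1 ± 19.9 in papilla, 1.69 ± 0.781 in sheath and 2.02 ± 1.55 in interfollicular dermis (SD, n = 3). It was higher in stem cells than in sheath (log2 fold change 3.45, limma adjusted p = 3.01e-05) and did not pass between papilla and stem cells (0.69, adjusted p = 0.295). Kera, a cornea proteoglycan gene beside Lum, averaged 1.65 ± 0.736 and 2.04 ± 1.13 in stem cells and papilla, 0.130 ± 0.108 in sheath and 0.515 ± 0.514 in interfollicular dermis. The Kera difference between stem cells and interfollicular dermis did not pass (log2 fold change 0.82, SE 0.36, limma adjusted p = 0.089). Tsku, a secreted regulator of several signalling pathways, averaged 3.74 to 6.40 in the 4 populations and passed in 0 of the 6 comparisons. Epyc, Optc, Chad, Chadl, Nyx and Podnl1 did not pass the filter.

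The collagens that these proteoglycans bind differed in the same 4 comparisons. All 12 listed fibrillar and associated collagen genes were higher in stem cells than in sheath and than in interfollicular dermis (median log2 fold change 3.75 and 4.03). Of all tested genes, 19.6% and 17.9% were called higher in these 2 comparisons. Of the 12, 11 were higher in papilla than in sheath and 12 higher than in interfollicular dermis (16.4% and 13.7% of all tested genes). Col1a1 averaged 2758 ± 425 FPKM in stem cells, 5513 ± 2245 in papilla, 235 ± 134 in sheath and 197 ± 199.6 in interfollicular dermis. Between papilla and stem cells 1 of 12 passed, near the 8.69% of all tested genes called either way. Col12a1, a fibril-associated collagen, averaged 8.17 ± 2.27 in papilla and 65.2 ± 28.4 in stem cells (-2.81, limma adjusted p = 0.000528). Bgn, Prelp and Omd were lower in papilla in that comparison too, and Col1a1 was not (0.92, adjusted p = 0.512).

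Chondroitin and dermatan sulfate chains are built and modified by a set of Golgi enzymes. Of 15 tested enzyme genes 11 were higher and 1 lower in stem cells than in sheath (19.6% and 24.3% of all tested genes). Against interfollicular dermis 10 were higher and 1 lower in stem cells (17.9% and 19.7%). In papilla 9 were higher and 1 lower than in sheath (16.4% and 33.4%), and 8 and 2 than in interfollicular dermis (13.7% and 28.6%). Without stem cell replicates 1 and 2, the 12 and 11 called in the stem cell comparisons were 7 and 7. The sulfotransferase gene Chst11 was the lower one in both stem cell comparisons (log2 fold change -1 and -1.21, limma adjusted p = 0.00811 and 0.00328). The dermatan sulfate epimerase gene Dse averaged 23.7 ± 2.55 FPKM in stem cells, 17.7 ± 4.90 in papilla, 10.5 ± 2.09 in sheath and 4.97 ± 1.80 in interfollicular dermis. The sulfotransferase gene Chst12 averaged 18.3 ± 2.60, 13.5 ± 6.41, 4.75 ± 2.30 and 1.58 ± 1.24 in the same order. Between papilla and stem cells 1 of the 15 passed, near the 8.69% of all tested genes called either way. It was the uronyl sulfotransferase gene Ust (8.88 ± 1.29 against 3.38 ± 0.887, log2 fold change 1.19, limma adjusted p = 0.023). The Ust call ended with a pseudocount of 0.1 (adjusted p = 0.132), with the replicate block (0.053) and without stem cell replicate 1 (0.104) or 2 (0.0553). The count for papilla against interfollicular dermis went from 10 to 6 genes without interfollicular replicate 2, and also when only those 2 populations were fitted or papilla replicates 1 and 2 were left out.

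The chains start on a linkage region that joins them to the protein. Of 7 linkage region genes, 1 was higher and 0 lower in stem cells than in sheath (19.6% and 24.3% of all tested genes). Against interfollicular dermis 1 was higher and 1 lower in stem cells (17.9% and 19.7%). A count of 1 in 7 is near these shares. The higher one was B4galt7, a galactosyltransferase (0.92 and 0.97, limma adjusted p = 0.035 and 0.0317), whose calls both ended without any 1 of the stem cell replicates (0.0507 to 0.104). The lower one was Pxylp1, a xylose phosphatase (-1.46, limma adjusted p = 0.0132), a call that ended without interfollicular replicate 1 (-1.20, adjusted p = 0.0622). Its log2 fold change was -1.40 without stem cell replicates 1 and 2. In papilla 0 of the 7 were higher and 1 lower than in sheath (16.4% and 33.4%), and 0 and 2 than in interfollicular dermis (13.7% and 28.6%). Against stem cells 0 were higher in papilla and 1, B4galt7, lower (2.31% and 6.38%). That call ended with median-of-ratios scaling (-1.18, limma adjusted p = 0.0564). For keratan sulfate, 4 of 8 enzyme genes were tested. In stem cells 1 was higher and 0 lower than in sheath (19.6% and 24.3% of all tested genes; median log2 fold change 0.14). A count of 1 in 4 is near the share over all genes. It was B4galt1, a galactosyltransferase (34.4 ± 3.20 against 15.5 ± 4.24 FPKM, log2 fold change 1.13, limma adjusted p = 0.0024). Its log2 fold change was 1.05 without stem cell replicates 1 and 2. In papilla 1 was higher and 1 lower than in sheath (16.4% and 33.4%). The lower one was B3gnt2, a call that ended with median-of-ratios scaling (-0.21, limma adjusted p = 0.422). Whether these lists differ from each other was not tested.

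**Figure D5:**
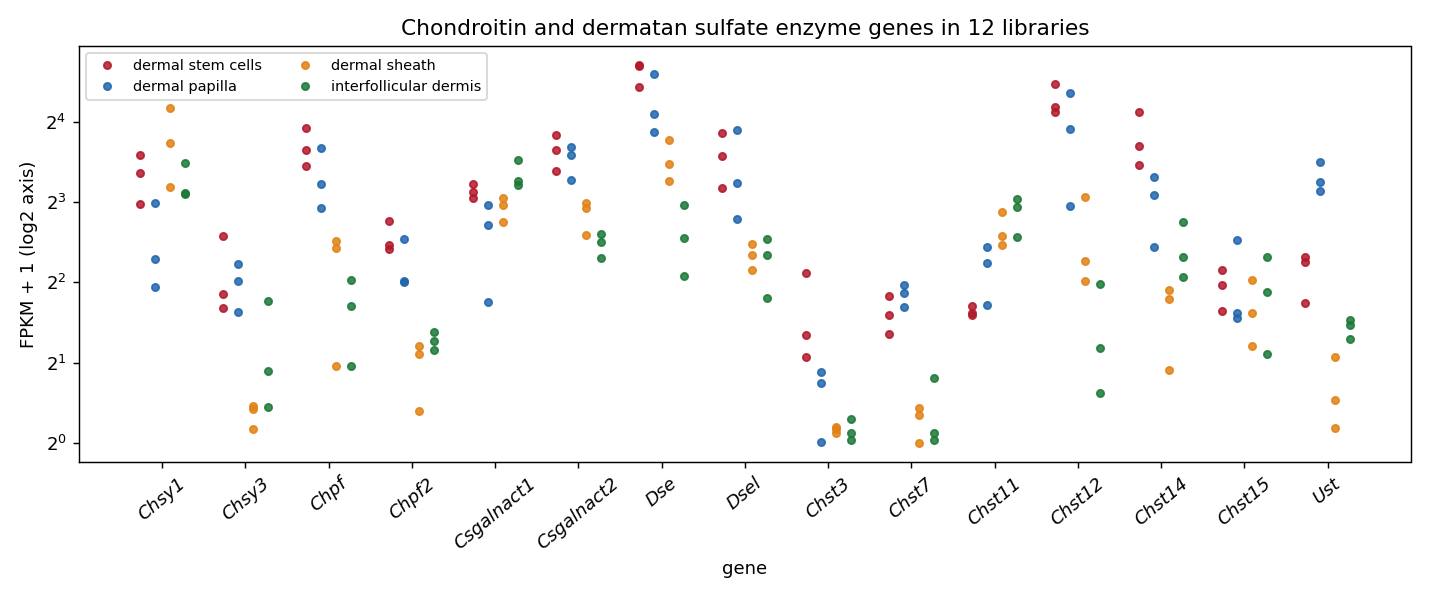
FPKM + 1 (log2 axis) of 15 chondroitin and dermatan sulfate enzyme genes in the 12 libraries, 1 point per library, coloured by population. For Dse and Chst12 the stem cell means (23.7 and 18.3 FPKM) are the highest and the interfollicular means (4.97 and 1.58) the lowest, and for Ust the papilla points lie above all others.

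Genes for other proteoglycan cores differed in both directions. Of 18 tested, 8 were higher and 3 lower in stem cells than in sheath (19.6% and 24.3% of all tested genes), with a median log2 fold change of 0.47 beside -0.13 over all genes. In papilla 2 were higher and 4 lower than in stem cells (2.31% and 6.38% of all tested genes), and 2 of the 18 passed in either direction without stem cell replicates 1 and 2. Acan, the large proteoglycan of cartilage, averaged 14.8 ± 9.01 FPKM in stem cells and 0.385 ± 0.518 in papilla (-3.43, limma adjusted p = 0.000241), and Spock3 0.200 ± 0.203 and 9.52 ± 5.65 (2.97, adjusted p = 0.000695). Gpc3, a membrane-anchored heparan sulfate proteoglycan, averaged 340.4 ± 80.3 in stem cells, 183 ± 11.1 in papilla, 6.996 ± 1.04 in sheath and 14.7 ± 2.44 in interfollicular dermis.

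Genes for proteins that process or cleave these proteoglycans and their collagen partners were mostly higher in stem cells and papilla. Of 11 tested, 8 were higher and 0 lower in stem cells than in sheath (19.6% and 24.3% of all tested genes), and 9 and 0 than in interfollicular dermis (17.9% and 19.7%). In papilla 8 were higher and 0 lower than in sheath (16.4% and 33.4%), and 8 and 0 than in interfollicular dermis (13.7% and 28.6%). Pcolce, which enhances procollagen processing, averaged 445 ± 32.9 FPKM in stem cells, 548 ± 142 in papilla, 13.7 ± 1.14 in sheath and 16.5 ± 6.72 in interfollicular dermis. Between papilla and stem cells 1 of 11 passed, near the 8.69% of all tested genes called either way. It was Pcolce2 (57.3 ± 17.6 against 13.03 ± 1.85, log2 fold change 2.02, limma adjusted p = 0.011), whose call ended with a pseudocount of 0.1 (adjusted p = 0.082).

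Among 15 genes for ligands and receptors that bind decorin or biglycan, 1 was higher and 3 lower in papilla than in stem cells, where 2.31% of all tested genes were higher and 6.38% lower. Tgfb1, a growth factor bound by decorin, averaged 7.84 ± 3.03 FPKM in papilla and 33.2 ± 7.60 in stem cells (log2 fold change -1.99, limma adjusted p = 0.00442). Ctgf, a matricellular protein gene, averaged 39.6 ± 16.1 and 310.1 ± 53.1 (-2.99, adjusted p = 0.000101). The matrix receptor gene Itgb1 was lower by -0.99 (adjusted p = 0.0112), and Met, a receptor to which decorin binds, was higher by 1.67 (adjusted p = 0.0417), a call that ended with the replicate block in the 6 libraries (adjusted p = 0.0598), without the filter (0.0975) and without stem cell replicate 1 (0.122), 2 (0.0553) or 4 (0.119), papilla replicate 1 (0.135) or 2 (0.1), sheath replicate 5 (0.057) or interfollicular replicate 1 (0.056). The Itgb1 call ended with quantile normalization (-0.68, adjusted p = 0.114). Without stem cell replicates 1 and 2 together, the papilla and stem cell calls of Ust (adjusted p = 0.339), Pcolce2 (0.142), Tgfb1 (0.109), Met (0.197) and Itgb1 (0.147) ended, and without papilla replicates 1 and 2 those of Ust (0.0627), Pcolce2 (0.0637), Met (0.427) and Itgb1 (0.0611).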

How the data were processed

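The authors deposited 1 table of FPKM values, 1 column per library, and no further scaling is stated. The submitters' processing notes list TopHat2 2.0.13, SAMtools and Cufflinks 2.2.1, with mm10 as the build, but not what each did; the annotation is not given in the sources used here. Read counts cannot be had from the FPKM, so intervals for counting error are left out. Depth relative to other libraries was estimated from the commonest ratio of genes under 0.3 FPKM to stem cell replicate 2 and ran from 0.633 to 1.93. The FPKM total per library ran from 181680 to 262690.

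The test used the 12774 genes that reached 1 FPKM in 3 or more libraries, took log2(FPKM + 1) and was run in limma 3.58.1 (R 4.3.3): 4 population means, empirical Bayes moderation with a mean-variance trend, 8 residual degrees of freedom, two-sided tests, Benjamini-Hochberg adjustment over all tested genes within a comparison and a threshold of 0.05. Fold changes on this scale understate those of low genes. Ratios of means are from unlogged FPKM. The scripts were tested on simulated data. For papilla minus stem cells, 37% of 100 simulated log2 changes of 1 and 91% of 100 changes of 2 were called. There were 9 false calls among 12774 genes. A difference near 1 that did not pass is therefore not shown to be absent. Exact permutation tests used Python 3.11.15.

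The members and lists were chosen with earlier results of these data known. Named genes were the 9 members, up to 4 of the most changed called genes of each list, reference collagens and the 3 genes most correlated with each member, of which the text gives those it names. Whether replicate numbers pair stem cell and papilla libraries was judged from the data alone. Deviations from the population means correlated at 0.24 to 0.39 in all 3 same-numbered pairs. Differently numbered pairs of these populations gave -0.33 to 0.12. Over the other 9 same-numbered pairs they ran from -0.27 to 0.29. Sheath replicate 1 with interfollicular replicate 6 gave 0.45, so the pairing remains uncertain. The main fit did not use it. Alternatives were a pseudocount of 0.1, no filter, median-of-ratios scaling, quantile normalization, fits of 2 populations, a replicate block and leaving out each library, with the gene set of the main analysis kept.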

Additional observations from a re-analysis of the deposited data

How the results depend on the processing

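Of 1260 values of the members' tests under alternatives, 1215 kept direction and side of the threshold, 22 no longer passed and 23 changed sign. The only sign change in a comparison that had passed was Dcn between stem cells and sheath with quantile normalization (-0.28). For papilla minus stem cells, 3 of the 9 genes passed without each library in turn, with the replicate block and under each scaling, and 2 without stem cell replicates 1 and 2 together, while the count over all genes ran from 515 to 1422 without each library (1110 with all), was 512 with only these 2 populations, 658 with the replicate block in their 6 libraries and 182 without stem cell replicates 1 and 2. Without papilla replicates 1 and 2, 6113 genes passed for stem cells minus sheath and 5332 for stem cells minus interfollicular dermis. Leaving out stem cell replicates 1 and 2 gave 2620, 2005 and 162 genes for stem cells minus sheath, stem cells minus interfollicular dermis and sheath minus interfollicular dermis, in place of 5607, 4800 and 289.

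Without the filter Dcn passed neither the F test (adjusted p = 0.11) nor stem cells minus sheath (0.327), stem cells minus interfollicular dermis (0.232), papilla minus sheath (0.0754) or papilla minus interfollicular dermis (0.0557). With quantile normalization it failed the F test (0.0768), stem cells minus interfollicular dermis (0.523) and papilla minus sheath (0.305). Without papilla replicates 1 and 2 Fmod no longer passed against sheath (0.0981) or interfollicular dermis (0.261). The cause was not tested. The count of 1 for sheath minus interfollicular dermis became 0 without the filter and with the replicate block, and ranged from 0 to 1 without each library. The count over all genes there was 150 with the replicate block and 103 to 431 without each library. Counts without each library ranged from 8 to 9 of the 9 genes for stem cells minus sheath and papilla minus interfollicular dermis.

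The other sign changes were in differences that had not passed. For papilla minus stem cells, Ogn became 0.19 and Podn 0.01 with median-of-ratios scaling, and Ogn 0.06 and Podn 0.01 with quantile normalization. Without 1 library, or without both replicates 1 and 2 of stem cells or of papilla, Ogn ranged from -0.32 to 0.31 (0.09 without stem cell replicate 4, 0.16 without papilla replicate 2), Aspn from -0.24 to 0.68 and Podn from -0.43 to 0.22. For sheath minus interfollicular dermis, Podn became 0.13 with a pseudocount of 0.1, 0.07 with quantile normalization and 0.28 without interfollicular replicate 6. With the replicate block Dcn became -0.16, Lum 0.01, Prelp 0.17 and Podn 0.51. Without each library in turn, Lum ranged from -0.78 to 0.30 (above 0 without sheath replicates 1 and 5 and interfollicular replicate 6), Dcn from -0.05 to 0.46 (below 0 without sheath replicate 4 and interfollicular replicate 6), Ogn from -0.22 (sheath replicate 4) to 0.86 and Podn from -0.42 to 0.28. Of the 7 ratios, adjusted p without each library ranged from 0.0023 to 0.25 for Ogn to Aspn, and the Prelp to Fmod ratio gave 0.14 with a pseudocount of 0.1. Of 2252 values for named list genes, 137 no longer passed and 0 changed sign.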
